A study of Arabidopsis thaliana with 9 samples.

Results

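The core cell cycle genes of Arabidopsis thaliana were examined here as a family of 50 loci among 27444 protein-coding genes. They comprised A-type, B-type and D-type cyclins, the CDKA and CDKB kinases, the KRP and SIM inhibitors, E2F factors with RBR1, MYB3R factors, WEE1, CDT1A and ORC2. The family was a fixed list of loci, not every gene of each kind, and it had been proposed with earlier results of the same libraries in view. The measure was the length of H3K4me3 peak, in bp, over the gene body and 500 bp on both sides, called the gene window here. The members are treated as selected on these lengths, since they were known when the list was made, so the values describe the members and no p-value is given for any of them.

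H3K4me3 is the trimethylation of lysine 4 of histone H3, a mark found near the start of transcribed genes. ChIP-seq, the sequencing of DNA recovered with an antibody to the mark, was run on 12-day-old seedlings of the Col-0 ecotype, grown at 23 °C with 16 h of light and 8 h of dark on medium with 1% sucrose. The 3 genotypes were the Col-0 wild type, the mutant jmj28-2, affected in a JmjC-domain protein gene, and atx1/2, affected in the Trithorax-type methyltransferase genes ATX1 and ATX2. Each genotype had 2 H3K4me3 libraries, and all 6 came from the same ecotype and age. The labels name no allele for atx1/2, and nothing in them states that paired libraries came from separate plants or cultures, so the spread between replicates may be technical. The design sets each mutant beside the wild type, and the mutants beside each other.

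Cyclins bind and activate cyclin-dependent kinases (CDKs), and different cyclins act at different steps. D-type cyclins with CDKA act at entry into the cycle, where they phosphorylate the retinoblastoma-related protein RBR1 and free E2F factors to switch on genes of DNA synthesis. B-type cyclins, CDKB kinases and MYB3R factors act around mitosis, and KRP and SIM proteins hold CDK activity down. In seedlings, dividing cells are confined mostly to meristems and young organs, while many other cells have left the cycle or replicate DNA without dividing. A peak list from seedlings averages all of these cells, so a mark carried by fewer cells and a weaker mark per cell cannot be told apart.

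The lists held 14291 to 14493 peaks per library on chromosomes 1 to 5, with median widths of 1801 to 1858 bp. They hold no read counts, so sequencing depth is unknown. Each peak has a score, which the labels do not define. It is used here to rank peaks within a list and, as an alternative, to keep peaks scoring 100 or more. That minimum was the same for all lists, and whether it stands for the same signal in each is unknown. Calls made with it carry this limit. The lowest score in each list lay just above 20, and median scores of the lists ranged from 460 to 538, the highest being those of atx1/2. In seedlings photosynthesis genes should be marked and seed storage genes not. All 4 photosynthesis genes examined had a peak on the gene body in every library. Of 5 seed storage genes, 4 had none on the gene body in any library, and OLEO1 had 100 to 176 bp. In the gene window, 3 of these 5 had a peak in all 6 libraries, 1 in some and 1 in none. Lengths there were 369 to 414 bp for CRA1, 254 to 324 bp for CRC and 759 to 1055 bp for OLEO1. A peak in the window thus does not by itself show that the gene body was marked.

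Most of the family carried the mark in all 3 genotypes. Of the 50 genes, 40 had a peak in their window in all 6 libraries, 7 in some libraries and 3 in none, and 46 had one in at least 2 libraries. Among all protein-coding genes 66.8% had a peak in all 6 libraries, 5.06% in some and 28.1% in none. Of the 46 genes with a peak in at least 2 libraries, 6 lacked it in some other library, as did 5.43% of all such genes. The 3 genes without any peak were CYCA2;1, an A-type cyclin, CYCB1;4, a mitotic cyclin, and MYB3R5, a repressor of mitotic genes. CYCD7;1, which acts in the last division of the stomatal lineage, had no peak on its gene body in any library, and the 360 to 495 bp in its window belonged to a peak over OHP and NDP1. That peak scored 100 or more in the mutants alone, so with such peaks this cyclin was called as longer in both mutants. The members with a peak numbered 43 and 46 in Col-0, 42 and 43 in jmj28-2, and 41 and 42 in atx1/2. Their summed peak length was 83.4 and 87.7 kb in Col-0, 81.4 and 82.1 kb in jmj28-2, and 76.8 and 80.8 kb in atx1/2. Both Col-0 libraries thus lay above the 4 mutant libraries in either measure, apart from a tie at 43 genes with 1 jmj28-2 library. Over the whole lists, peaks covered 29.273 and 29.454 Mb in Col-0, 28.515 and 28.83 in jmj28-2 and 29.099 and 28.973 in atx1/2. Col-0 was thus highest there too. Of all protein-coding genes, 19068 and 19062 had a peak in Col-0, 18888 and 18931 in jmj28-2 and 19102 and 19111 in atx1/2. By that count jmj28-2 was also below Col-0, and atx1/2 was not. Nothing is read from the order in the members.

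**Figure D1:**
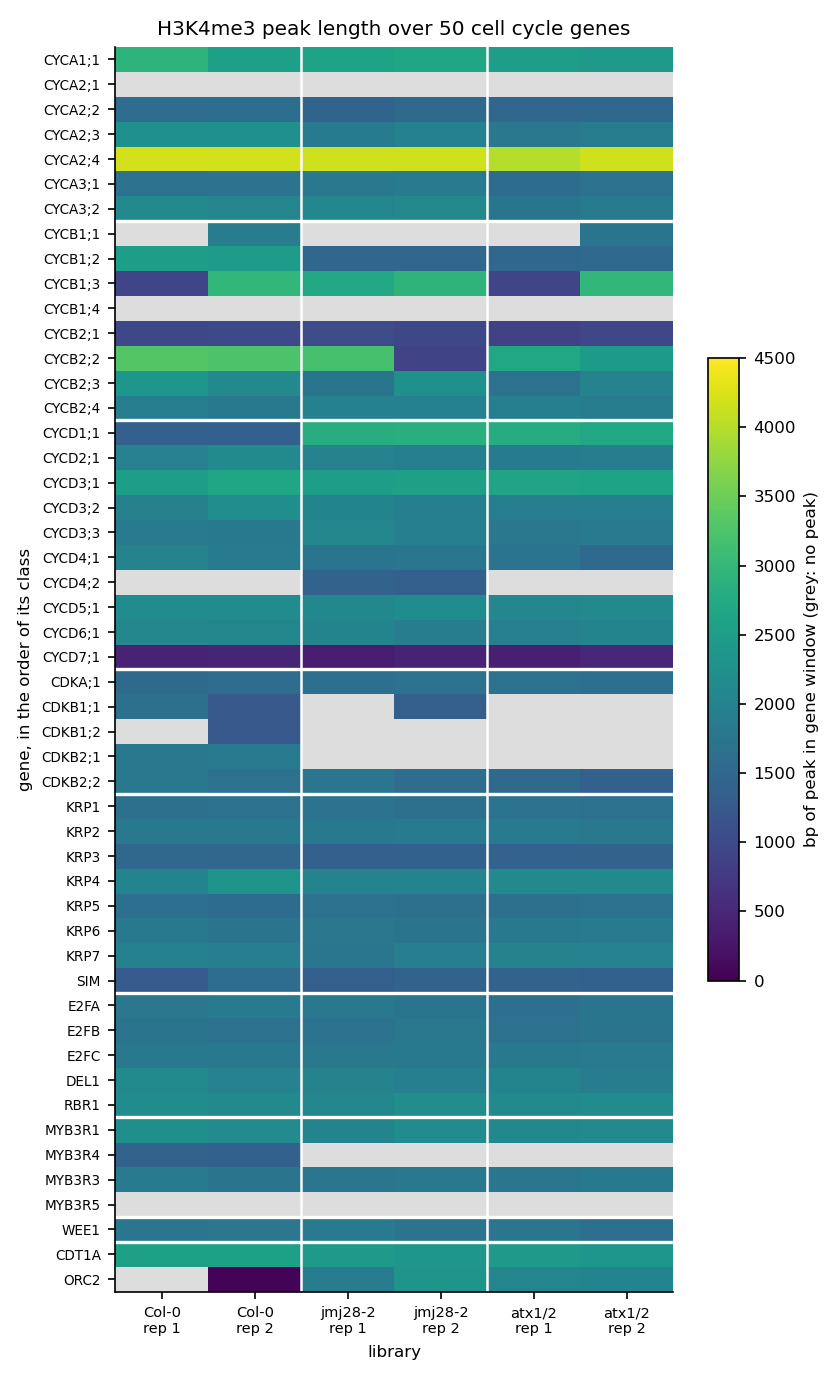
Peak length in bp over the gene window for each of the 50 cell cycle genes (rows, ordered by class, white lines between classes) in the 6 libraries (columns), with grey where a library had no peak. Most rows have 1 colour across all libraries, and the rows that change are the CDKB kinases, several B-type cyclins, CYCD1;1, CYCD4;2, MYB3R4 and ORC2.

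Most marked members had peaks of common length. In the 46 members with a peak in at least 2 libraries, the median length per library lay between 1769 and 1838.5 bp, and over all 19396 genes with such a peak it lay between 1786 and 1834 bp. The members were longer genes, with a median of 2446.5 bp against 2078 bp for protein-coding genes. The longest stretch of mark was over CYCA2;4, an A2-type cyclin, with a mean of 4196.5 bp in Col-0, where the peak also covered the neighbour AT1G80380. Of the 47 members with any peak, 15 had a peak that also covered at least 200 bp of another protein-coding gene in some library. For these the peak is not that of the cell cycle gene alone.

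Changes between genotypes were fitted with limma on log2(bp + 200) over all 19396 genes, with Benjamini-Hochberg adjustment and a threshold of 0.05. In jmj28-2 against Col-0, 6 of the 46 fitted members were called, where 1.24% of all genes were called. CYCD1;1, CYCD4;2 and ORC2 were longer and CYCB1;2, CDKB2;1 and MYB3R4 shorter, where 0.345% and 0.897% of all genes were longer and shorter. In atx1/2 against Col-0, 5 members were called, where 1.6% of all genes were called. They were the same genes without CYCD4;2, so 2 were longer and 3 shorter, against 0.779% and 0.825% of all genes. Between the mutants only CYCD4;2 was called, shorter in atx1/2, where 1.28% of all genes were called and 0.387% were shorter. Nothing is read from these counts, because the lengths were in view when the family was chosen. The comparisons with Col-0 also share its 2 libraries. With the same fit on peaks scoring 100 or more, only CYCD1;1 and CYCB1;2 of these 6 members were still called, in both mutants.

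CDKB2;1 and MYB3R4 had peaks in Col-0 alone. CDKB2;1 (AT1G76540), a plant-specific kinase of meristems needed for mitosis, had 1794 and 1852 bp of peak in Col-0 and none in the 4 mutant libraries (chromosome 1, 28720927 to 28722778, TAIR10). MYB3R4 (AT5G11510), a transcription factor that activates mitotic genes, had 1440 and 1397 bp in Col-0 and none in the mutants (chromosome 5, 3679555 to 3681032). Both Col-0 libraries of these genes had a peak and no mutant library did. With either Col-0 library left out, a single library had a peak and neither gene could be fitted. All of these peaks were weak, with scores of 31.85 and 36.21 for CDKB2;1 and of 25.2 and 24.2 for MYB3R4. They ranked at the 2.37 and 3.22 percentile and at the 1.19 and 1.09 percentile of their lists. At a score of 100 or more neither gene had a peak in any library. The difference is thus one between a peak near the lowest score of its list and none.

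Peaks over the CDKB1 kinases were as weak. CDKB1;1 (AT3G54180), which acts in the last stages of the cell cycle and in stomatal divisions, had 1658 and 1265 bp in Col-0, none and 1361 bp in the jmj28-2 libraries, and none in atx1/2 (chromosome 3, 20059395 to 20061101). The lengths in jmj28-2 overlapped those of the wild type and those in atx1/2 did not, and neither comparison was called. In atx1/2 against Col-0 it was called when either jmj28-2 library was left out, or when only the 4 libraries of the comparison were fitted. It was also called in jmj28-2 against Col-0 without jmj28-2 replicate 2, and between the mutants without jmj28-2 replicate 1. CDKB1;2 (AT2G38620), its close relative, had a peak in a single library, Col-0 replicate 2, of 1256 bp. The 4 peaks of this pair ranked between the 0.65 and the 2.81 percentile. CDKB2;2 (AT1G20930) had a peak in every library, at the 4.62 to 16.25 percentile, with 1793 and 1678 bp in the wild type, 1764 and 1614 in jmj28-2, beside 1562 and 1377 in atx1/2. The atx1/2 libraries were the lowest, below both other genotypes without overlap, with a log2 change of -0.21 ± 0.077 (SE) against Col-0 that was not called. Its peak scored 100 or more in jmj28-2 alone, so with such peaks it was called as longer there. CDKA;1 (AT3G48750), the kinase used throughout the cycle, had 1561 and 1609 bp in the wild type, 1652 and 1675 in jmj28-2 and 1704 and 1635 in atx1/2. Its mutant libraries were all above Col-0, by a log2 change of 0.06 ± 0.029 and 0.07 ± 0.029, and were not called. Summed over the 5 kinases, peak length was 6806 and 7660 bp in the wild type, 3416 and 4650 for jmj28-2, and 3266 and 3012 for atx1/2. The wild type was thus above every mutant library, through the CDKB genes without a peak there.

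**Figure D2:**
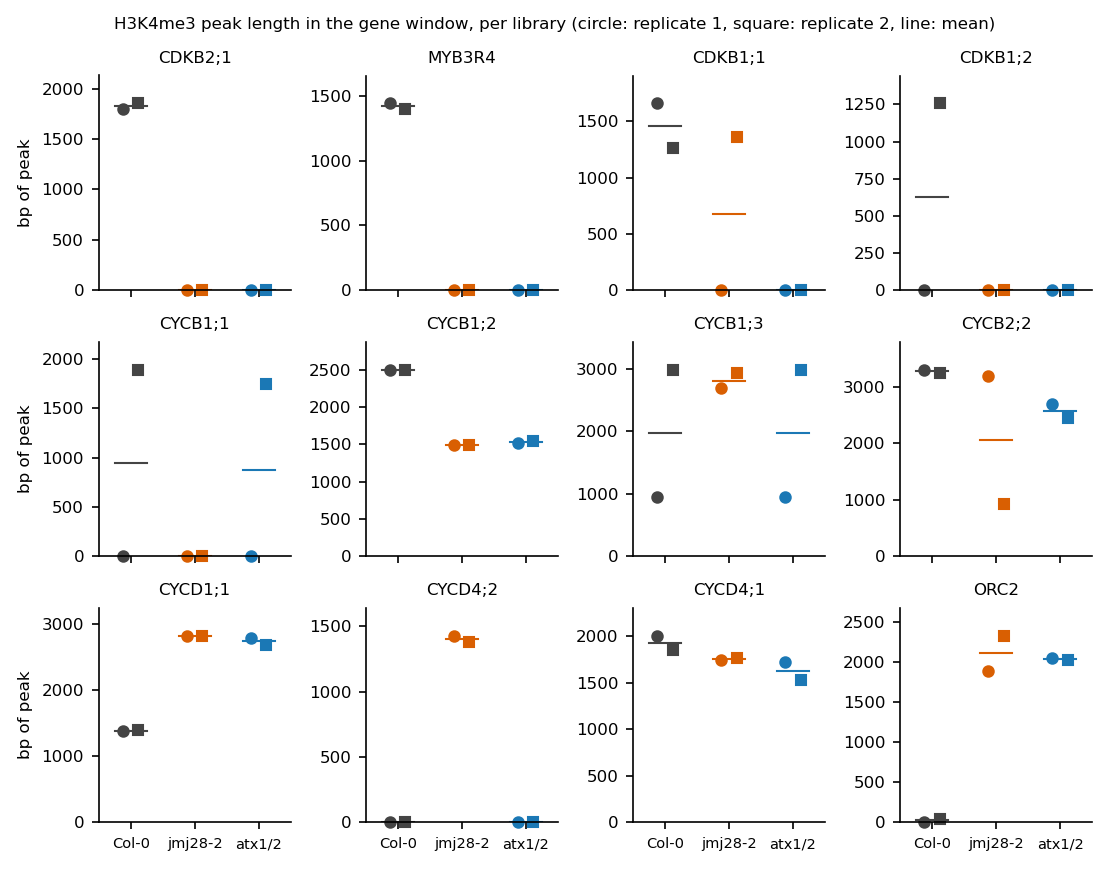
Peak length in bp (vertical axes, each from 0) in each library for 12 members, with circles for replicate 1, squares for replicate 2 and a line at the mean of each genotype. CDKB2;1 and MYB3R4 had peaks in Col-0 alone, CYCD4;2 in jmj28-2 alone, CYCD1;1 reached 1391 bp in Col-0 and 2674 to 2816 bp in the mutants, and replicates of CYCB1;1 and CYCB1;3 disagreed within a genotype.

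Among B-type cyclins, which drive entry into mitosis, the replicates of some genes differed from each other as much as the genotypes did. CYCB1;1 (AT4G37490), widely used as a reporter of cells at the G2 to M transition, had a peak in Col-0 replicate 2 (1894 bp) and atx1/2 replicate 2 (1751 bp) and in no other library. These peaks ranked at the 0.63 and 8.64 percentile. CYCB1;3 (AT3G11520) had 947 and 2988 bp in the wild type, 2690 and 2930 in jmj28-2 and 945 and 2988 in atx1/2. Its lengths fell into long and short libraries within Col-0 and within atx1/2. In replicate 2 of both, a single peak of 5111 and 5084 bp ran over the cyclin and its neighbours AT3G11510 and AT3G11530. It lay on chromosome 3 from 3623680 to 3628790 in Col-0 and from 3623683 to 3628766 in atx1/2. In replicate 1 of both, separate peaks over the neighbours left most of the cyclin body bare. The log2 change in jmj28-2 was 0.65 ± 0.73 (SE) and was not called. Over the gene body alone, Col-0 replicate 1 had 198 bp and replicate 2 had 1988 bp.

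CYCB1;2 (AT5G06150) was shorter in both mutants, and most of the difference lay in 1 of its 2 peaks. Its window held 2501 and 2495 bp in the wild type, 1491 and 1494 in jmj28-2, beside 1518 and 1544 in atx1/2. The mutant libraries lay close to each other and far below Col-0. Both mutants were called, with log2 changes of -0.67 ± 0.017 (SE) for jmj28-2 and -0.64 ± 0.017 for atx1/2.

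The peak that differed was shared with SNX1, a sorting nexin gene (chromosome 5, 1857606 to 1860211). In Col-0 this peak measured 2559 and 2605 bp and covered 933 and 932 bp of the cyclin's gene body. In the 4 mutant libraries it measured 1593 to 1678 bp and reached 0 to 23 bp into that body. A separate peak over the other end of the cyclin gene (1861014 to 1862087) measured 1068 and 1063 bp in the wild type, 984 and 994 in jmj28-2 and 1014 and 1021 in atx1/2. It was kept in every library, with scores of 30.57 to 68.32, while the shared peak scored 391.64 or more. The stretch that was absent in the mutants was thus the end of a strong neighbouring peak and part of the cyclin body.

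CYCB2;2 (AT4G35620) showed a division of a long shared peak. In Col-0 a single peak of 4589 and 4928 bp ran over the cyclin, the phosphoserine aminotransferase gene PSAT and the serine acetyltransferase gene SERAT3;2 (chromosome 4, 16901199 to 16906191). In jmj28-2 replicate 1 and in both atx1/2 libraries there were 2 peaks in its place, and in jmj28-2 replicate 2 only the part over PSAT was present. The peaks on the cyclin's side then scored 40.33 to 42.64, against 709.65 or more for those on PSAT. In the cyclin's window this gave 3303 and 3238 bp in the wild type, 3199 and 919 in jmj28-2 and 2702 and 2444 in atx1/2. Both mutants were below Col-0 without overlap, but jmj28-2 replicate 2 stood far from the other library of its genotype. Neither comparison was called, with log2 changes of -0.83 ± 0.57 (SE) and -0.33 ± 0.57. Without jmj28-2 replicate 1 the change in jmj28-2 was -1.63 and was called, and without jmj28-2 replicate 2 it was -0.03. Peaks of 100 or more alone made it shorter, and called, in both mutants.

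The remaining B2-type cyclins differed less. CYCB2;1 (AT2G17620) had the shortest mark among B-type cyclins with a peak in every library, 979 and 985 bp in the wild type, 1021 and 978 in jmj28-2 and 870 and 957 in atx1/2, in a peak shared with AT2G17630. CYCB2;3 (AT1G20610) had 2369 and 2124 bp in the wild type, 1750 and 2252 in jmj28-2 and 1700 and 2017 in atx1/2. Only atx1/2 lay wholly below Col-0 for this gene, with a log2 change of -0.25 ± 0.15 (SE) that was not called. At a score of 100 or more this change turned to 1.59, also not called, since Col-0 replicate 1 then had no peak. CYCB2;4 (AT1G76310), which shared its peak with FRS4, ranged from 1821 to 1982 bp over the 6 libraries.

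**Figure D3:**
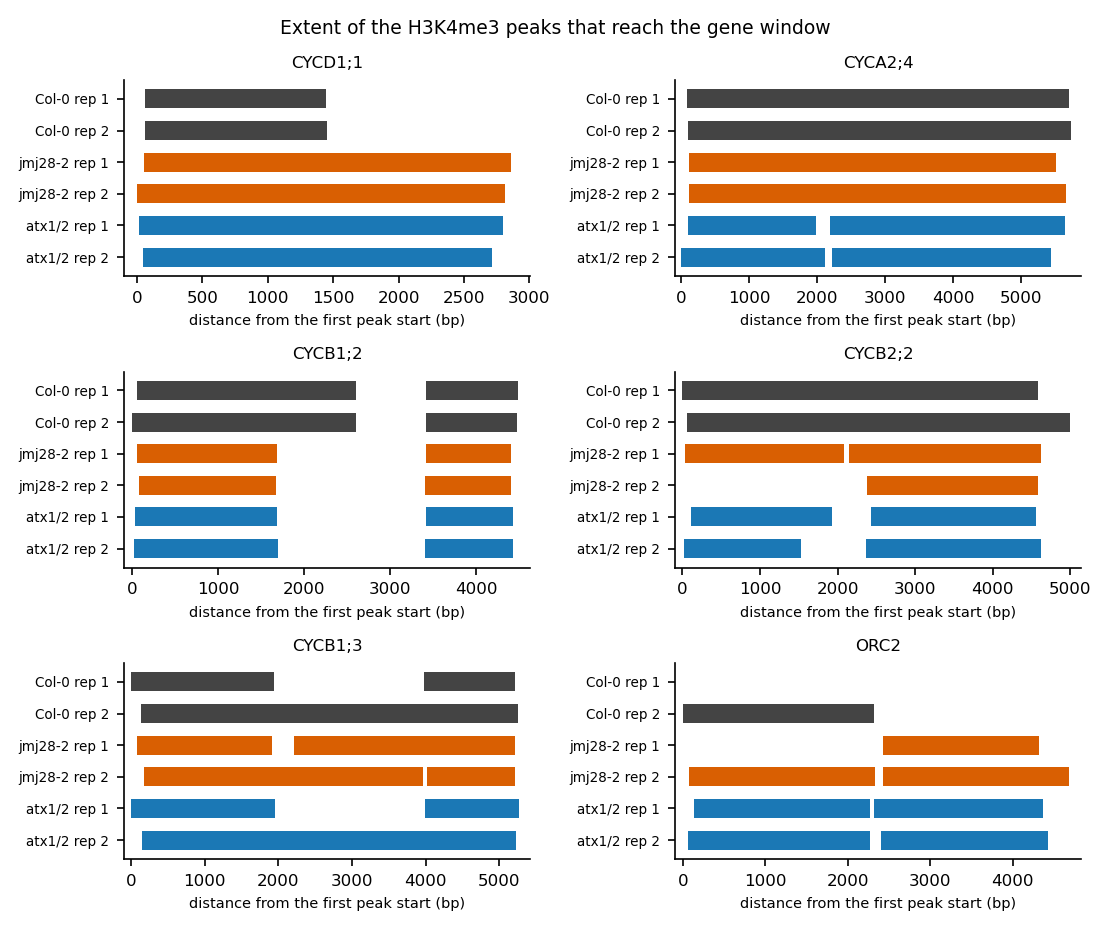
Extent of every peak that reaches the window of 6 members, drawn as bars against the distance in bp from the first peak start of the locus, 1 row per library coloured by genotype. The CYCD1;1 bars are longer in all 4 mutant libraries, the CYCA2;4 bars are broken in atx1/2, the first CYCB1;2 bar is shorter in all mutant libraries, and the bars of CYCB2;2 and CYCB1;3 join in some libraries and part in others.

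D-type cyclins link growth signals such as sucrose and cytokinin to cell cycle entry. Against Col-0, 2 of the 10 were called in jmj28-2 and 1 in atx1/2, where 1.24% and 1.6% of all genes were called. CYCD1;1 (AT1G70210), which acts in the root meristem during germination, had 1380 and 1391 bp of peak in the wild type, 2806 and 2816 in jmj28-2 and 2786 and 2674 in atx1/2 (chromosome 1, 26439423 to 26442281). The Col-0 libraries were nearly equal, and every mutant library was far longer. Both mutants were called, with log2 changes of 0.93 ± 0.025 (SE) for jmj28-2 and 0.89 ± 0.025 for atx1/2. The peak began at nearly the same place in all 6 libraries, within 26439423 to 26439486, and ended at 26440864 and 26440876 in Col-0 but between 26442139 and 26442281 in the mutants. The added stretch therefore lay on 1 side, within the gene body, where Col-0 had 1309 and 1321 bp and the mutants had 2584 to 2726 bp. No other protein-coding gene shared this peak. Its rank was moderate, at the 21.23 to 31.84 percentile, and at a score of 100 or more all 6 lengths were the same as in the full lists.

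CYCD4;2 (AT5G10440), which acts in stomatal lineage divisions of the hypocotyl, had 1427 and 1382 bp in jmj28-2 and no peak in Col-0 or atx1/2 (chromosome 5, 3281345 to 3282789). The 2 jmj28-2 peaks were close in length. They scored 94.39 and 38.69, the 9.97 and 3.76 percentile of their lists, and neither remained at a score of 100 or more. With equal numbers of peaks per list both were kept. With either jmj28-2 library left out, a single library had a peak and the gene could not be fitted. Its close relative CYCD4;1 (AT5G65420) had 2005 and 1853 bp in the wild type, 1742 and 1769 in jmj28-2, beside 1722 and 1531 in atx1/2. The 3 genotypes did not overlap, and the log2 changes of -0.12 ± 0.067 (SE) and -0.22 ± 0.067 against Col-0 were not called. The peak of this relative ranked at 1.90 and 4.36 in atx1/2, at 18.85 and 21.50 in Col-0, and at 15.31 and 13.88 in jmj28-2. With peaks of 100 or more alone, it was present in Col-0 and jmj28-2 and absent from both atx1/2 libraries, and was then called as shorter in atx1/2 than in either other genotype.

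The other D-type cyclins kept their peaks. CYCD3;1 (AT4G34160), the cytokinin-induced cyclin and the longest of the class in Col-0, had 2518 and 2645 bp in the wild type, 2503 and 2560 in jmj28-2 and 2630 and 2615 in atx1/2, and no group lay apart from Col-0. Its relative CYCD3;3 (AT3G50070) had 1879 and 1825 bp in the wild type, 2074 and 1940 in jmj28-2, beside 1801 and 1849 in atx1/2. The jmj28-2 libraries were the highest for that gene, with log2 changes of 0.11 ± 0.039 (SE) against Col-0 and -0.12 ± 0.039 for atx1/2 against jmj28-2, neither of them called. CYCD2;1, CYCD3;2, CYCD5;1 and CYCD6;1, the last of which acts in the division that forms root ground tissue, ranged from 1871 to 2212 bp over all libraries. Their log2 changes against Col-0 lay between -0.12 and -0.02 and were not called. CYCD6;1 shared its peak with AT4G03260, and none scored 100 or more in Col-0 replicate 1.

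A-type cyclins act from DNA synthesis to mitosis, and those of the A2 type, with CDKB1, restrain the change from division to endoreduplication. None of the 6 with a peak was called, where 1.24% of all genes were called in jmj28-2 and 1.6% in atx1/2 against Col-0. In all, 5 of the 6 were shorter in atx1/2 than in Col-0 without overlap, where 23.1% of all genes were. In jmj28-2 it was 3, where 26.0% of all genes were, and nothing is read from either count. CYCA2;3 (AT1G15570) had 2256 and 2257 bp in the wild type, 1855 and 1983 in jmj28-2 and 1804 and 1890 in atx1/2. All 4 mutant libraries were well below Col-0, with log2 changes of -0.21 ± 0.040 (SE) and -0.26 ± 0.040 that did not pass the threshold. CYCA3;2 (AT1G47210) had 2155 and 2049 bp in the wild type, 2068 and 2110 in jmj28-2 and 1746 and 1850 in atx1/2, so that atx1/2 lay apart from both. CYCA3;1 (AT5G43080) had 1700 and 1706 bp in the wild type, 1807 and 1879 in jmj28-2 and 1593 and 1704 in atx1/2, with jmj28-2 above both. The log2 change between the mutants was -0.20 ± 0.040 (SE) for the former and -0.15 ± 0.039 for the latter, and neither was called.

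CYCA2;4 (AT1G80370) had nearly equal lengths of 4205 and 4188 bp in the wild type, 4176 and 4176 in jmj28-2 and 3994 and 4182 in atx1/2, but the shape of its peak differed. A single peak of 5404 to 5639 bp lay over the gene in Col-0 and jmj28-2 (chromosome 1, within 30213398 to 30219053). In both atx1/2 libraries it was broken into a peak of 1890 and 2116 bp that scored 36.84 and 32.60 and one of 3472 and 3224 bp that scored 839.97 and 804.7. At a score of 100 or more the window therefore held 2104 and 2066 bp in atx1/2 and 4176 to 4205 bp in the other libraries, and the gene was called in atx1/2. CYCA2;2 (AT5G11300), the shortest of the class, had 1611 and 1623 bp in the wild type, 1443 and 1556 in jmj28-2 and 1490 and 1525 in atx1/2. CYCA1;1 (AT1G44110) had 2908 and 2545 bp in the wild type, 2604 and 2669 in jmj28-2 and 2498 and 2438 in atx1/2. Its peak passed a score of 100 in the 4 mutant libraries only, so that with such peaks alone it was called as longer in both mutants, against log2 changes of -0.04 ± 0.067 (SE) and -0.13 ± 0.067, not called, in the full lists.

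The CDK inhibitors were marked in every library and varied little. All 8 had a peak in all 6 libraries, and none was called in any comparison, where 1.24% to 1.6% of all genes were. Their summed length was 13511 to 14152 bp in every library. KRP4 (AT2G32710), the longest, had 2039 and 2323 bp in the wild type, 2009 and 2009 in jmj28-2 and 2160 and 2135 in atx1/2. Its jmj28-2 libraries were the lowest, with a log2 change of -0.11 ± 0.063 (SE) that was not called. The change was -0.02 without Col-0 replicate 2 and -0.19 without Col-0 replicate 1. The end of a peak over CB5-B reached the KRP4 window in 2 libraries. It gave 133 bp of the length in Col-0 replicate 2, and part of the 2160 bp in atx1/2 replicate 1. SIM (AT5G04470), which promotes endoreduplication in leaf hairs, had the shortest mean in Col-0, with 1317 and 1604 bp in the wild type, 1369 and 1424 in jmj28-2, beside 1440 and 1402 in atx1/2. Its peak also covered at least 200 bp of AT5G04475 in some or all libraries. The gene body of SIM, and those of KRP2, KRP5 and KRP7, were covered over the same length in all 6 libraries, so their differences lay in the flanks. KRP7 had 1986 and 1933 bp in the wild type, 1758 and 1917 in jmj28-2, beside 2004 and 1992 in atx1/2. The log2 change between the mutants was 0.11 ± 0.044 for that gene and was not called. KRP1, KRP2, KRP3, KRP5 and KRP6 ranged from 1382 to 1875 bp with log2 changes against Col-0 between -0.09 and 0.05.

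The regulators of cell cycle transcription, apart from MYB3R4 and MYB3R5, were as even. RBR1 (AT3G12280), which holds E2F factors inactive, had 2191 and 2141 bp in the wild type, 2074 and 2212 in jmj28-2 and 2155 and 2165 in atx1/2. Its peak had the highest mean rank of the family, from the 87.42 to the 92.42 percentile. In some or all libraries that peak also covered at least 200 bp of AT3G12290, so the rank is not that of RBR1 alone. E2FB (AT5G22220), an activator of cell division, ranged from 1693 to 1800 bp. No group lay apart for either gene. E2FA, the repressor E2FC and the atypical factor DEL1 ranged from 1649 to 2145 bp with log2 changes against Col-0 between -0.09 and 0.01, and DEL1 shared part of its peak with APC8, a subunit gene of the anaphase-promoting complex. MYB3R1 (AT4G32730), which both activates and represses mitotic genes, had 2249 and 2176 bp in the wild type, 2025 and 2171 in jmj28-2 and 2104 and 2158 in atx1/2. Both mutants lay below Col-0 for this gene, with log2 changes of -0.07 and -0.05 that were not called. The repressor MYB3R3 ranged from 1734 to 1843 bp. MYB3R factors thus comprised 2 evenly marked genes, 1 gene with no peak and MYB3R4 with a weak peak in Col-0 alone.

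WEE1 (AT1G02970), the kinase that halts the cycle after replication stress, had 1770 and 1792 bp in the wild type, 1833 and 1727 in jmj28-2 and 1764 and 1642 in atx1/2. Only atx1/2 lay below Col-0 without overlap. The WEE1 peak also covered at least 200 bp of AT1G02965 in some or all libraries. CDT1A (AT2G31270), which loads the replicative helicase, had 2556 and 2554 bp in the wild type, 2426 and 2356 in jmj28-2 and 2426 and 2370 in atx1/2. All mutant libraries were below Col-0, with log2 changes of -0.09 ± 0.023 (SE) in both that were not called. ORC2 (AT2G37560), a subunit of the complex that marks replication origins, lacked a peak on its gene body in both wild-type libraries. The mutants had 1554 and 1917 bp there in jmj28-2, beside 1597 and 1662 in atx1/2.

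The ORC2 peaks were next to those of AGD7, a neighbouring gene, and stood out only faintly. In its window Col-0 had 0 and 48 bp, the latter the end of the AGD7 peak, while jmj28-2 had 1892 and 2326 bp and atx1/2 had 2054 and 2025 bp (chromosome 2, 15755836 to 15760517, both genes). All 4 mutant libraries had a peak of its own on ORC2, and no Col-0 library did. These peaks scored 22.59 to 27.97, the 0.56 to 1.59 percentile, beside 968.28 to 1361.03 for the AGD7 peaks. With equal numbers of peaks per list ORC2 had 8 and 5 bp in atx1/2 and its call there was lost, while that in jmj28-2 was kept. At a score of 100 or more no library had a peak of its own on ORC2, and both calls were lost.

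**Figure D4:**
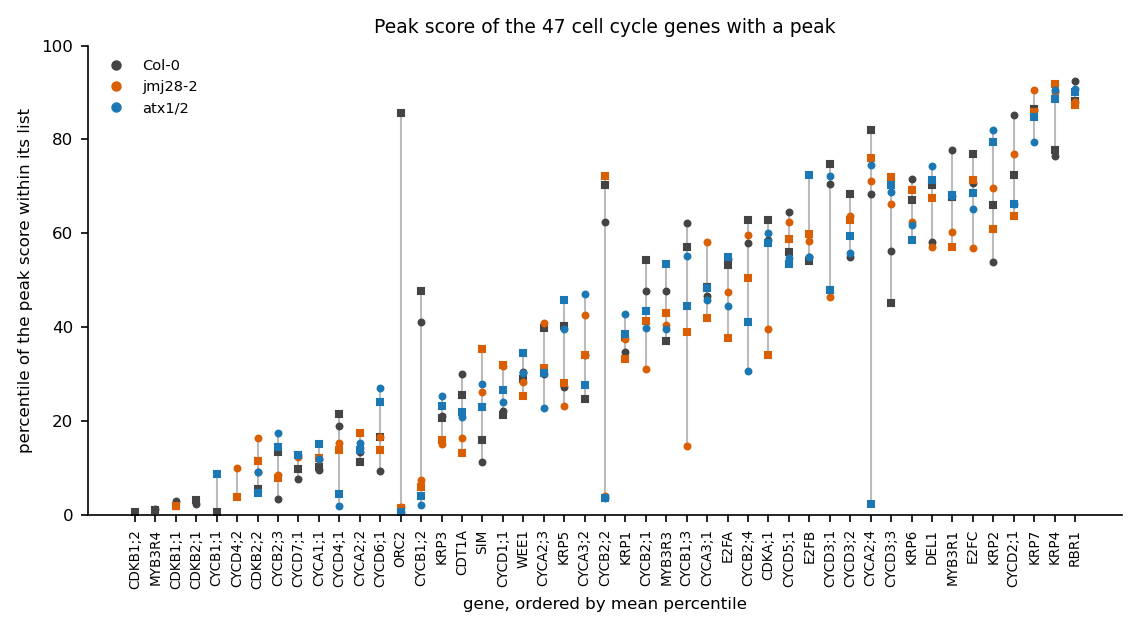
Percentile of the peak score within its own list (vertical axis) for the 47 members with a peak, ordered by their mean, with 1 point per library (circle: replicate 1, square: replicate 2) and a grey line over the range. The peak of largest overlap is shown, so a gene that shares a strong neighbouring peak, such as ORC2, CYCB1;2, CYCB2;2 or CYCA2;4, can jump between libraries. CDKB1;2, MYB3R4, CDKB1;1, CDKB2;1, CYCB1;1 and CYCD4;2 all lie below 10.

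Genes with a peak in some libraries ranked low. The median percentile of the members' peaks lay between 37.6 and 47.7 per library. For the 7 genes with a peak in some libraries, every peak of their own ranked below the 10th percentile. CDKB2;2, CYCB2;3, CYCA1;1, CYCD6;1, CYCD4;1 and CYCD7;1 also ranked below it in some library and had a peak in all 6. So did CYCB1;2, CYCB2;2 and CYCA2;4, in libraries where the peak of largest overlap was not the one shared with a neighbour. Score and presence come from the same lists. The ranks thus describe how near these genes were to the lowest scores of the lists, and do not test their differences.

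Across the 40 genes with a peak in all 6 libraries, lengths were mostly close between genotypes. In jmj28-2 against Col-0, 28 had a negative log2 change (70.0%, against 63.2% of all genes with a peak in all 6 libraries). In atx1/2 the number was 29 (72.5%, against 58.3%), and for atx1/2 against jmj28-2 it was 21 (52.5%, against 45.0%). The median log2 change over the 46 fitted members was -0.04 in jmj28-2 and -0.05 in atx1/2, beside -0.02 and -0.01 over all fitted genes. Lengths in jmj28-2 and the wild type were separate in 23 of 46 members, where 36.1% of all genes were, with 8 longer (10.1% of all genes) and 15 shorter (26.0%). For atx1/2 and Col-0 they were separate in 31 (36.7% of all genes), with 8 longer (13.7%) and 23 shorter (23.1%). For the mutants they were separate in 19 (35.6%), with 6 longer (20.7%) and 13 shorter (14.9%). The 23 shorter in atx1/2 held 5 of 6 fitted A-type, 4 of 7 B-type and 5 of 10 D-type cyclins and 3 of 4 CDKs. Of the 8 CDK inhibitors, 4 were among the longer ones, with log2 changes of only 0.02 to 0.05, and 1 was among the shorter. Nothing is read from these counts, as above.

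**Figure D5:**
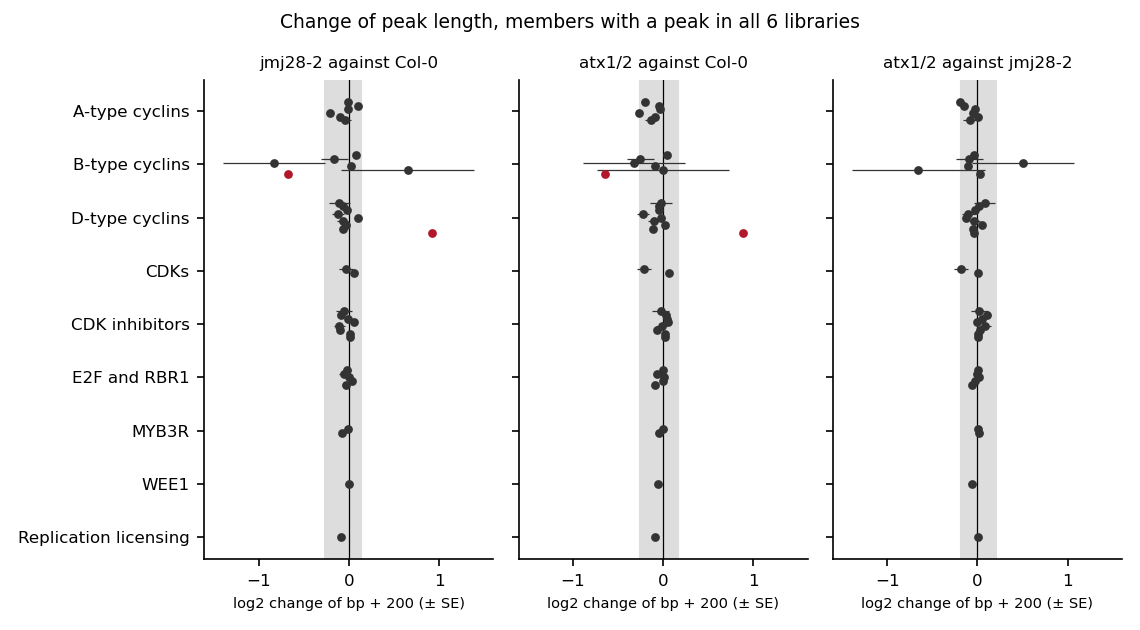
Log2 change of peak length (bp + 200) with its SE for the 40 members with a peak in all 6 libraries, by class, in the 3 comparisons. The grey band holds all 18343 genes with a peak in all 6 libraries apart from 2.5% at each end, and red points were called. CYCD1;1 to the right and CYCB1;2 to the left are the called members, and most other points lie within the band.

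Genes of the same processes outside the family were mostly marked in every library. The 64 such genes were of replication licensing, the anaphase-promoting complex, other CDKs, SIAMESE-RELATED inhibitors, DP and E2F-like factors and other cyclins. In the gene window, 58 had a peak in all 6 libraries, 4 in some and 2 in none. On the gene body alone, 54 had a peak in all 6 libraries and 3 in none, SMR7 being among these 3. Of the 62 fitted, 1 was called as shorter in jmj28-2 and 1 in atx1/2, where 0.897% and 0.825% of all genes were, which is near the background. None was called between the mutants, where 1.28% of all genes were, and none was called as longer. The called gene in both was CYCB1;5, a B-type cyclin outside the family, with 663 and 687 bp in Col-0 and none in either mutant, scoring 33.15 and 41.64. CDC20.1, an activator of the anaphase-promoting complex, had a peak of its own only in Col-0 replicate 2. OSD1, an inhibitor of that complex, lacked a peak only in Col-0 replicate 2, with 1670 to 2105 bp elsewhere. SMR3, an inhibitor related to SIM, lacked one only in Col-0 replicate 1, with 1145 to 1248 bp elsewhere. CYCA3;3 and CYCB2;5 had no peak in any library.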

How the data were processed

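H3K4me3 ChIP-seq peak lists of 6 libraries were analysed (2 per genotype). The 3 H3 samples were not analysed here. The submitters' processing notes name, without roles, MACS 1.4, Bowtie2 2.2.8, deepTools 2.4.1, ChIPseeker and build TAIR10. The authors deposited 1 list per library with peak positions and a peak score, so replicates were not pooled. Peak positions were counted from 1, and chloroplast peaks were left out. Gene bodies came from a RefSeq table of TAIR10.1, which has no strand. A shift of under 400 bp gave the best match to the peaks in 115 of 118 windows of 1000 kb. Printed coordinates are those of peaks. No sequences were used here.

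The bp of peak in each gene body with 500 bp on both sides were summed per library. Values as log2(bp + 200) were fitted with limma 3.58.1 (R 4.3.3) for genes holding a peak in 2 or more libraries. A single model took the 6 libraries together, leaving 3 residual degrees of freedom. The pseudocount understates changes of short lengths, no fold is given against a genotype without a peak, and no adjusted p is printed for a member. The fit was tried on simulated lengths of genes with a peak in all 6 libraries, some of them changed or removed in jmj28-2. Genes whose replicates disagreed on a peak were not simulated, so the trial does not cover them. Python 3.11.15, pandas 2.3.3, numpy 2.4.6 and matplotlib 3.10.9 handled tables and plots.

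The members and gene lists were chosen with earlier results of these data known. Values in every library are given for members called, with a peak in some libraries, longest or shortest in Col-0 within their class, or among the 5 with the largest log2 change per comparison that were not called and whose libraries did not overlap. CYCA1;1, CDKA;1, CYCB2;4 and the members given by range were added to account for every gene. Alternatives were the window, pseudocount, filter, scaling, variance model, score minimum, number of peaks, replicate block and leaving out each library.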

Additional observations from a re-analysis of the deposited data

How the results depend on the processing

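The number of members with a peak in all 6 libraries was 40 and lay between 34 and 41 under the other windows, overlaps, scores and list sizes. The counts of members called were 6, 5 and 1 in jmj28-2 against Col-0, atx1/2 against Col-0 and atx1/2 against jmj28-2, where 1.24%, 1.6% and 1.28% of all genes were. When only genes with a peak in all 6 libraries were fitted they were 2, 2 and 0 (0.354%, 0.529% and 0.414% of all genes), since genes without a peak in some library were no longer fitted. At a score of 100 or more they were 6, 7 and 3 (1.53%, 1.87% and 1.63% of all genes), of which 2, 2 and 0 were shared with the full lists, and with equal numbers of peaks the last count was 2 (1.18% of all genes). Leaving out 1 library gave 4 to 6, 3 to 6 and 0 to 2, where 1.38% to 1.66%, 1.36% to 2.0% and 1.04% to 1.77% of all genes were called. Without either Col-0 replicate CDKB2;1 and MYB3R4 had a peak in a single library and were not fitted, which left 4 and 3 members called in the mutants against Col-0. Between the mutants there were 2 without jmj28-2 replicate 1 and 0 without replicate 2. Where 1 library was left in a genotype, it was assumed to vary like the others. The median log2 change of members was -0.008 in jmj28-2 and -0.019 in atx1/2 at a score of 100 or more, against -0.036 and -0.05. Between the mutants it was -0.003 and ranged from -0.028 to -0.004 when 1 library was left out. In atx1/2 the log2 change of ORC2 turned to -0.11 at a score of 100 or more and with equal numbers of peaks, and that of CYCB2;3 turned to 1.59 at a score of 100 or more. The causes of the other shifts were not tested. Over all genes, same-numbered libraries did not vary together (Pearson's r of the difference between replicates 0.0102 to 0.025 across 19396 genes). This cannot show whether such libraries were prepared together, which the labels do not state. With the replicate block 6, 5 and 1 members were called, as without it. Peak lists without read counts limit these results to where peaks were called and how long they were.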
